A study of Homo sapiens with 12 samples.

Results

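The 10 genes described here carry out or steer glycogen storage. They are 5 PPP1R3 targeting subunits (PPP1R3B, PPP1R3C, PPP1R3D, PPP1R3E and PPP1R3G), the glycogen synthases GYS1 and GYS2, the liver glycogen phosphorylase PYGL, the branching enzyme GBE1 and UGP2. They were taken by symbol from the 35984 genes of the deposited table. All 10 were listed, 9 had enough counts to be tested, and GYS2 had no count in any library. The set was built around PPP1R3B, which was chosen by its log2 fold change between knock-down and control cells. Differences between the lines are therefore given as descriptions for all 10 genes, with no p-value, and nothing is read from how many of them pass a threshold.

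HepG2 is an established human hepatoma cell line. RNA was sequenced from 12 libraries in 4 groups of 3. The double knock-down line (DKD) stably carries retroviral pRetroSUPER cassettes for shRNAs against both macroH2A1 and macroH2A2, histone variants with a large non-histone domain, and the control line (CTL) carries control shRNAs. DKD cells with TNFα, DKD cells without it, CTL cells with TNFα and CTL cells without it all spent a night in medium with 0.5% FBS before treatment. TNFα, an inflammatory cytokine, was given at 20 ng/mL for 24 h, and untreated cells received the vehicle for the same time. The labels do not say whether a line is a pool of transduced cells or a clone, so a difference between the lines cannot be told apart from an effect of the knock-down. Nor do they tell if replicate libraries are separate cultures, so p-values reflect only the spread between libraries, which may be technical.

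Glycogen is built from UDP-glucose, which UGP2 makes, by glycogen synthase and the branching enzyme, and is broken down by glycogen phosphorylase. Protein phosphatase 1 dephosphorylates both synthase and phosphorylase, which turns the first on and the second off, and the PPP1R3 subunits bring the phosphatase to the glycogen particle. In liver the main subunit of this kind is PPP1R3B, also called GL, and hepatocytes normally use GYS2 and PYGL, while GYS1 is the synthase of muscle and most other tissues.

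Library totals ran from 30955080 counts (CTL untreated 2) to 42094144, and 1 count stood for 0.0238 to 0.0320 CPM, the unit used throughout for counts over the TMM-scaled library size. MACROH2A1 averaged 55.5 CPM in TNFα-treated DKD cells, against 267.5 CPM in TNFα-treated CTL cells, and 46.2 CPM in untreated DKD cells, against 236.2 CPM in untreated CTL cells. MACROH2A2 averaged 3.96 against 46.4 CPM with TNFα and 5.11 against 57.8 CPM without it, in the same order of lines. The libraries numbered 1 of the DKD line stood apart on the first principal component, at -53.9 with TNFα and -83.7 without it, while the other 10 lay between -18.2 and 41.5. All 8 hepatocyte markers were detected, with summed levels of 20800 to 27470 CPM (DKD with TNFα), 27390 to 40680 CPM (DKD untreated), 17670 to 19590 CPM (CTL with TNFα) and 22090 to 23850 CPM (CTL untreated). The 10 markers of blood, endothelial, stromal and muscle cells summed to 35.5 to 54.1 CPM over all libraries, with CD3E at 0 throughout and VWF and DES also at 0 in TNFα-treated DKD cells. Both marker sums were higher in all DKD than in all CTL libraries with TNFα, and the hepatocyte sum also without it. Single markers did not all move with the sums. ALB, the gene of serum albumin, averaged 2548 CPM in DKD against 250.2 CPM in CTL cells with TNFα, and 6243 against 472.6 CPM without it. Of the other markers with TNFα, ACTA2 averaged 38.6 CPM in DKD against 24.5 CPM in CTL cells, while CD68 averaged 6.30 against 8.93 CPM and COL3A1 0.0321 against 0.276 CPM. The part of these markers in the differences below was not tested.

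PPP1R3B (chr8:9136255-9151574, minus strand, GRCh38) was the member with the largest difference between the lines. It stood at 2.10, 1.90 and 1.85 CPM in the 3 TNFα-treated DKD libraries, against 17.4, 13.0 and 12.8 CPM in the TNFα-treated CTL libraries. Untreated, it stood at 2.32, 1.66 and 2.10 CPM in DKD cells, against 22.6, 13.9 and 13.4 CPM in CTL cells. Every DKD library lay below every CTL library. In bulk RNA, fewer cells that express a gene and less of its RNA per cell cannot be told apart. In counts, the DKD libraries held 70 to 88 and the CTL libraries 434 to 929, well above a floor of 3 counts. The DKD mean was 13.5% of the CTL mean with TNFα and 12.2% without it. On the log2 scale the difference was -2.88 (SE 0.24, 95% interval -3.40 to -2.36) with TNFα and -3.04 (SE 0.24, 95% interval -3.56 to -2.51) without it. By size of decrease these were places 39 and 40 among the 16118 genes tested. PPP1R3B was chosen on this difference, so its size, interval and place follow from the choice and are no separate support. The 18 alternative analyses of each comparison reuse the same libraries. Over them the difference stayed between -2.96 and -2.73 with TNFα and between -3.17 and -2.75 without it. Ordered by level, the groups ran from untreated CTL cells (16.6 ± 5.17 CPM, SD, n = 3) through TNFα-treated CTL cells (14.4 ± 2.58) and untreated DKD cells (2.03 ± 0.334) to TNFα-treated DKD cells (1.95 ± 0.132). Within each line the neighbouring groups overlapped.

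**Figure D1:**
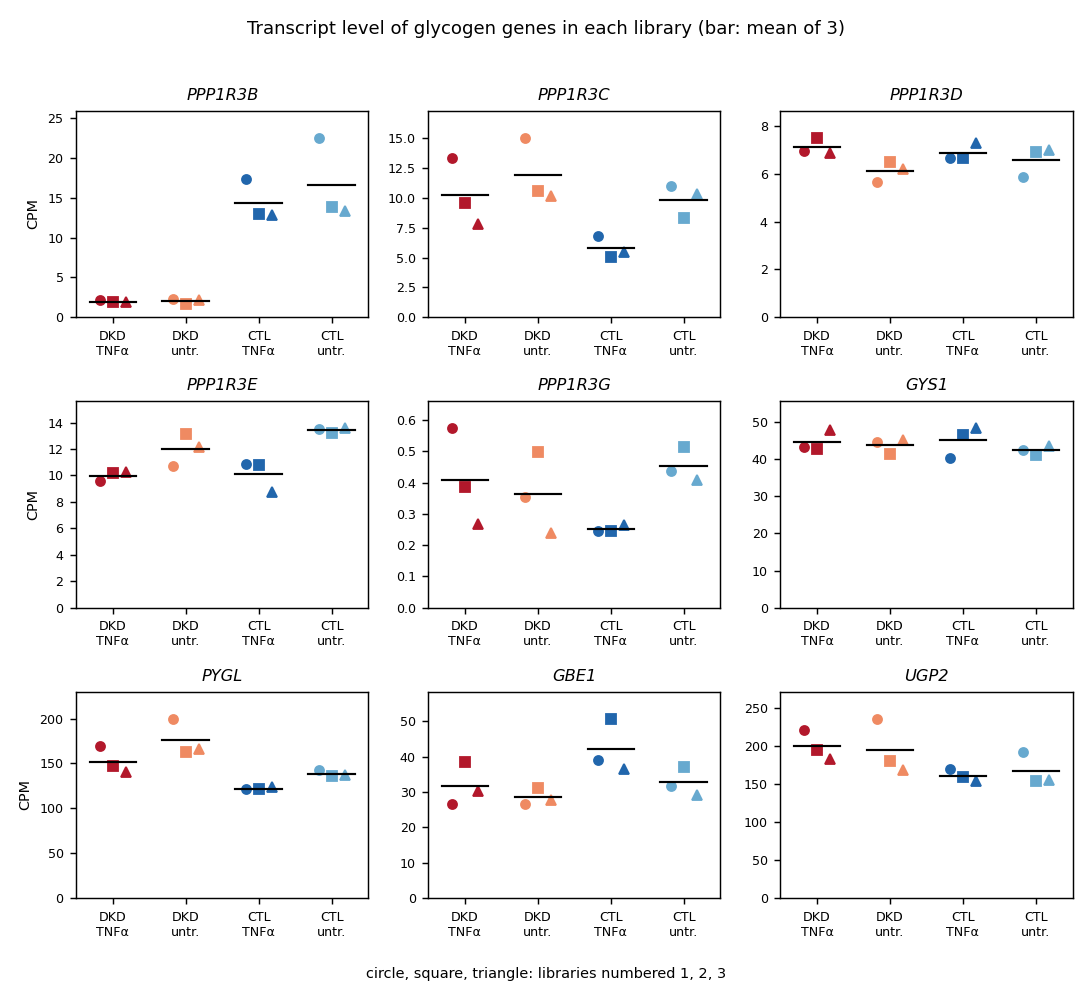
Level of the 9 detected members in CPM (vertical axis, from 0) in each of the 12 libraries, by group (horizontal axis); circles, squares and triangles are libraries 1, 2 and 3, and the bar is the mean of 3. PPP1R3B lies at 1.66 to 2.32 CPM in all DKD libraries and at 12.8 to 22.6 CPM in all CTL libraries, while GYS1 overlaps between all 4 groups.

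No other targeting subunit was lower in all DKD libraries under both treatments. PPP1R3C, also called PTG, a widely expressed subunit that binds both synthase and phosphorylase (chr10:91628442-91633054, minus strand), stood at 13.3, 9.61 and 7.85 CPM in TNFα-treated DKD cells, against 6.83, 5.06 and 5.42 CPM in TNFα-treated CTL cells. Without TNFα it stood at 15.1, 10.5 and 10.2 CPM in DKD cells, against 10.97, 8.30 and 10.3 CPM in CTL cells. With TNFα all DKD libraries were above all CTL libraries (log2 difference 0.83, SE 0.23), and without it the lines overlapped (0.27, SE 0.23).

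PPP1R3D, or R6 (chr20:59936668-59940297, minus strand), ranged from 5.66 to 7.52 CPM over the 12 libraries. It stood at 6.97, 7.52 and 6.85 CPM in TNFα-treated DKD cells, 5.66, 6.52 and 6.20 CPM in untreated DKD cells, 6.68, 6.65 and 7.30 CPM in TNFα-treated CTL cells and 5.86, 6.92 and 6.98 CPM in untreated CTL cells. The lines overlapped under both treatments, with log2 differences of 0.05 (SE 0.12) with TNFα and -0.10 (SE 0.12) without it.

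Promoter windows were available from RefSeq (GRCh38.p14) for 7 of the 10 members. The 250 bases before the start of PPP1R3C are shown because it had the largest TNFα difference, in CTL cells, among the better counted members. Beside them are those of PPP1R3D, whose levels with and without TNFα overlapped in CTL cells. In DKD cells PPP1R3D was higher in all treated libraries (log2 change 0.22), while PPP1R3C overlapped (-0.22). The PPP1R3C window is chr10:91633072-91633321 and the PPP1R3D window chr20:59940306-59940555, both on the minus strand and written 5′ to 3′. Capitals mark the matches to the motifs searched.
PPP1R3C: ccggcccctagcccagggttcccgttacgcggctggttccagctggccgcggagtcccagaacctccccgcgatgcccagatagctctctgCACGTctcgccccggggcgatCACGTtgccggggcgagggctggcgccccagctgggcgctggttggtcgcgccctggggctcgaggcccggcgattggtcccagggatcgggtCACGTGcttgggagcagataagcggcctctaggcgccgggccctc
PPP1R3D: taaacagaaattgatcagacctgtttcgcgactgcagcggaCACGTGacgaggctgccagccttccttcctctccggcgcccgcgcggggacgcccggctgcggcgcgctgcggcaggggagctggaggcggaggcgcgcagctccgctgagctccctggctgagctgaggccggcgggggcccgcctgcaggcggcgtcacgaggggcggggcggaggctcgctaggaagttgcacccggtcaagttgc
Motifs were searched on both strands, over windows of 300 bases that reach 50 bases past the start. They were the NF-κB form GGNNTTTCC (in 6.26% of 35116 windows), the E-box CACGTG (7.26%), the cAMP response element TGACGTCA (1.85%), the hypoxia response core ACGTG (21.4%), a forkhead site TGTTTAC (3.42%) and a C/EBP form TTGCNNAA (10.5%). PPP1R3C held an E-box 45 bases before the start and hypoxia response cores at 159, 138, 45 and 44 bases before it, the last pair within the E-box. PPP1R3D held an E-box 209 bases before the start, which also contains the core on both strands. The NF-κB form occurred in the GYS1 window alone among the 7 members, 103 bases before the start, and the core also in those of GBE1 and UGP2. PPP1R3G and PYGL held none of the 6. A match describes the letters only.

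PPP1R3E, a glycogen-targeting subunit (chr14:23295643-23302848, minus strand), stood at 9.56, 10.2 and 10.2 CPM in TNFα-treated DKD cells, against 10.9, 10.8 and 8.76 CPM in TNFα-treated CTL cells. Untreated DKD cells had 10.7, 13.1 and 12.1 CPM, just under the 13.5, 13.2 and 13.6 CPM of untreated CTL cells. The log2 difference between the lines was -0.02 (SE 0.12) with TNFα and -0.16 (SE 0.12) without it. PPP1R3G, a subunit described in mouse liver (chr6:5084581-5089487, plus strand), was rare, with 10 to 23 counts a library. It stood at 0.574, 0.384 and 0.267 CPM in TNFα-treated DKD cells, against 0.244, 0.244 and 0.264 CPM in TNFα-treated CTL cells. Untreated DKD cells had 0.355, 0.499 and 0.238 CPM, against 0.438, 0.513 and 0.408 CPM in untreated CTL cells, and there the ranges overlapped.

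From start to end in the GENCODE 29 gene models, PPP1R3D overlaps FAM217B, PPP1R3E overlaps HOMEZ and BCL2L2, and PYGL overlaps ABHD12B. Whether their exons overlap was not examined, and the strand setting of the counting is not given in the sources used here. It is therefore not known whether reads of these partners were counted for the members.

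Divided by the median length of each gene's coding transcripts, levels can be compared between genes. On this scale (CPM per kb), PPP1R3B stood at 0.494 ± 0.0337 in TNFα-treated DKD cells, 0.515 ± 0.0849 in untreated DKD cells, 3.65 ± 0.655 in TNFα-treated CTL cells and 4.22 ± 1.31 in untreated CTL cells (SD, n = 3). PPP1R3C stood at 4.07 ± 1.11, 4.73 ± 1.08, 2.29 ± 0.370 and 3.91 ± 0.552 CPM per kb in the same groups. Thus PPP1R3B was the most abundant of the 5 subunits by its mean in CTL cells. In untreated CTL cells its range overlapped that of PPP1R3C. It was the fourth of 5 in DKD cells, above PPP1R3G alone. PPP1R3F, a subunit of the family outside the members, averaged 1.03 and 1.09 CPM per kb in DKD cells, with TNFα and without it. That was above PPP1R3B. In CTL cells PPP1R3F averaged 0.47 and 0.45 CPM per kb.

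As a share of the summed level of the 5 subunits, PPP1R3B made up 5.71% ± 0.365 in TNFα-treated DKD cells, 5.41% ± 0.749 in untreated DKD cells, 36.3% ± 2.38 in TNFα-treated CTL cells and 32.4% ± 6.10 in untreated CTL cells. PPP1R3C made up 46.2% and 49.3% in the DKD groups and 22.8% and 30.4% in the CTL groups, with TNFα and without it. PPP1R3B, chosen for its difference between the lines, is part of each total. The shares of the other subunits and the summed level therefore carry that choice. Without TNFα the level of PPP1R3C itself overlapped between the lines. The summed level itself was 8.70 ± 1.10 CPM per kb in TNFα-treated DKD cells, against 10.01 ± 1.11 in TNFα-treated CTL cells, and 9.51 ± 0.817 in untreated DKD cells, against 12.85 ± 1.57 in untreated CTL cells. The sums of these 5 overlapped between the lines with TNFα and did not overlap without it. They leave out PPP1R3F, so they do not give the level of the whole family. With the longest coding transcript as the length, PPP1R3C came above PPP1R3B in untreated CTL cells, at 33.6% against 25.5%.

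**Figure D2:**
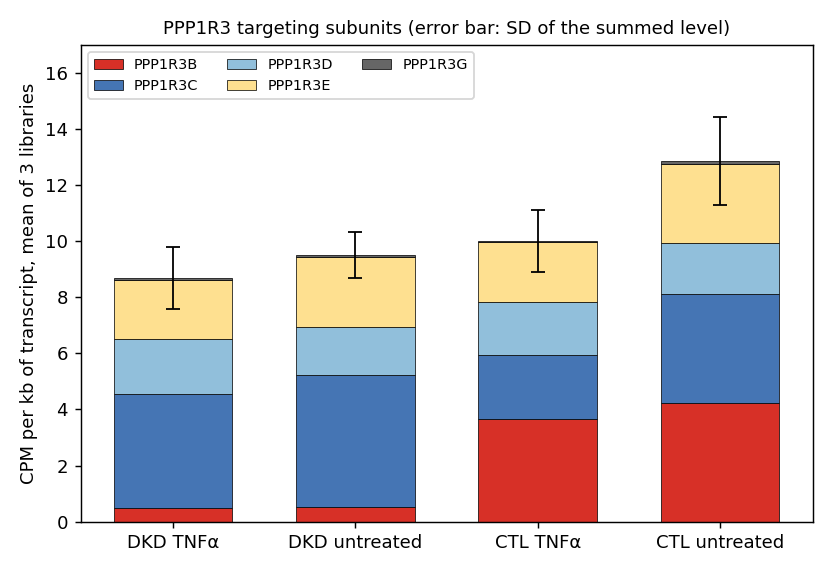
Mean level of the 5 PPP1R3 targeting subunits per kb of transcript (vertical axis, CPM per kb), stacked for each group, with the SD of the summed level over 3 libraries as the error bar. The PPP1R3B layer is 0.494 and 0.515 CPM per kb in DKD cells, against 3.65 and 4.22 in CTL cells, with TNFα and without it.

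Among the enzymes, GYS1 (chr19:48968125-48993310, minus strand) was the synthase under which counts were listed. GYS2 (chr12:21536189-21604847, minus strand) was listed at 0 counts in all 12 libraries, which for counting error alone allows at most 3 counts or 0.0714 to 0.0961 CPM a library. HK1, a hexokinase of most cell types, also had only 2 to 12 counts a library, and how transcripts were summed to genes is not given in the sources used here, so the 0 may not be a level. GYS1 stood at 43.3, 42.7 and 48.0 CPM in TNFα-treated DKD cells, 44.6, 41.5 and 45.2 CPM in untreated DKD cells, 40.4, 46.5 and 48.4 CPM in TNFα-treated CTL cells and 42.6, 41.2 and 43.7 CPM in untreated CTL cells. All groups overlapped, and the log2 difference between the lines was -0.01 (SE 0.09, 95% interval -0.21 to 0.18) with TNFα and 0.04 (SE 0.09, 95% interval -0.15 to 0.24) without it.

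PYGL, which releases glucose 1-phosphate from glycogen (chr14:50857891-50944736, minus strand), was higher in DKD libraries. It stood at 169.0, 147.0 and 140.6 CPM in TNFα-treated DKD cells, against 121.3, 121.6 and 123.5 CPM in TNFα-treated CTL cells. Untreated, it stood at 200.0, 162.3 and 166.0 CPM in DKD cells, against 142.6, 136.5 and 137.2 CPM in CTL cells. Under both treatments the lines did not overlap, with log2 differences of 0.32 (SE 0.09) and 0.34 (SE 0.09), and both became 0.24 without the DKD libraries numbered 1, which were the highest of their groups. Per kb, PYGL had the highest mean of the phosphorylases in all 4 groups, at 56.1, 65.0, 45.05 and 51.2 CPM per kb in TNFα-treated DKD, untreated DKD, TNFα-treated CTL and untreated CTL cells. The brain form PYGB stood at 31.5, 27.6, 37.9 and 30.7 CPM per kb in these groups, and the muscle form PYGM did not exceed 0.424 CPM per kb in any library. With the longest coding transcript as the length, PYGL made up 48.99% and 49.25% of the phosphorylase level in TNFα-treated CTL libraries 2 and 3, below PYGB.

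GBE1, which adds branches to the growing chain (chr3:81489699-81762161, minus strand), stood at 26.5, 38.4 and 30.3 CPM in TNFα-treated DKD cells, against 39.1, 50.7 and 36.4 CPM in TNFα-treated CTL cells. Untreated, it stood at 26.6, 31.1 and 27.9 CPM in DKD cells, against 31.8, 37.1 and 29.2 CPM in CTL cells. The lines overlapped under both treatments, though the DKD library was the lower in all 3 same-numbered pairs each time (log2 difference -0.41, SE 0.16, with TNFα and -0.20, SE 0.17, without it).

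UGP2 (chr2:63840940-63891562, plus strand) stood at 221.4, 195.4 and 183.4 CPM in TNFα-treated DKD cells, against 170.0, 160.2 and 154.4 CPM in TNFα-treated CTL cells. Untreated, it stood at 236.5, 181.3 and 168.3 CPM in DKD cells, against 192.8, 154.5 and 155.9 CPM in CTL cells. The lines did not overlap with TNFα (log2 difference 0.31, SE 0.13) and overlapped without it (0.22, SE 0.13). It had the highest level per kb of the 10 genes in every group, between 84.7 and 104.9 CPM per kb on average.

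Counted over the 9 tested members, 4 stood higher in all DKD than in all CTL libraries with TNFα (PPP1R3C, PPP1R3G, PYGL and UGP2) and 1 lower (PPP1R3B), where 13.2% of all tested genes were higher and 12.1% lower in this sense. Without TNFα, 1 was higher throughout (PYGL) and 2 lower (PPP1R3B and PPP1R3E), where 11.3% of all genes were higher and 10.4% lower. The median log2 difference of the members was 0.05 with TNFα and -0.10 without it, beside 0.002 and 0.011 for all genes.

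**Figure D3:**
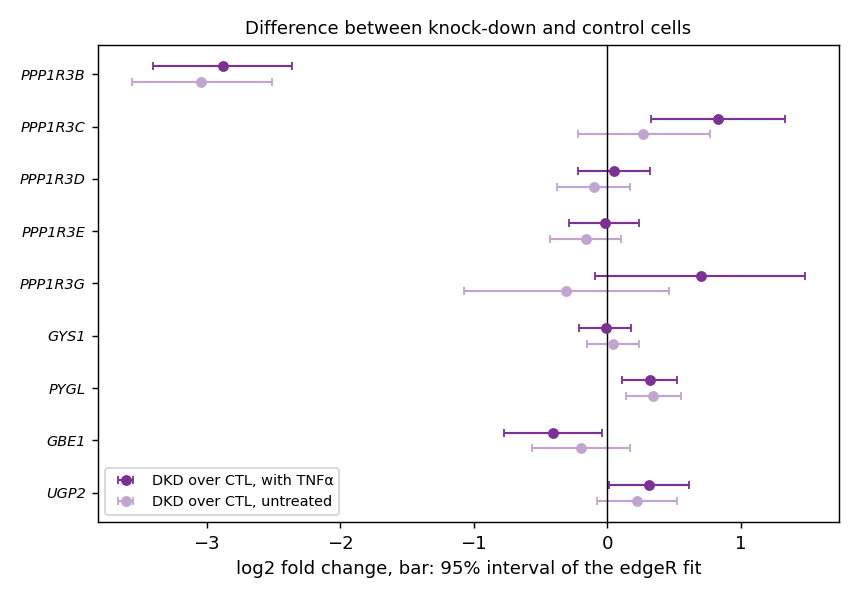
Log2 difference of DKD over CTL cells (horizontal axis) for the 9 tested members, with TNFα (dark) and without it (light); bars are 95% intervals of the edgeR fit. PPP1R3B lies at -2.88 and -3.04, and the other 8 lie between -0.41 and 0.83.

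The same 9 genes were then set against TNFα. PPP1R3B was chosen on the contrast between the lines, but all members were chosen with earlier results of these data known. In edgeR's quasi-likelihood test at an adjusted p under 0.05, within each line, 0 members passed in DKD cells, where 1.79% of all genes passed, and 0 passed in CTL cells, where 2.62% of all genes passed. At an unadjusted p under 0.05 there were 1 in DKD cells (10.1% of all genes) and 4 in CTL cells (13.9% of all genes). DESeq2 called 0 in DKD cells, where it called 651 of 16095 genes, and 2 in CTL cells, where it called 1024 of 16095. With the library number as a block 0 passed in DKD cells (7.67% of all genes) and 3 in CTL cells, 1 higher (7.94% of all genes) and 2 lower (4.70% of all genes). The groups with and without TNFα did not overlap for 2 members in DKD cells, 1 higher (7.03% of all genes) and 1 lower (5.25% of all genes). In CTL cells they did not overlap for 4 members, all lower, where 11.7% of all genes were lower in this sense. The members' median log2 change was 0.03 in DKD cells and -0.18 in CTL cells, beside -0.008 and 0.001 for all genes.

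PPP1R3C had the largest TNFα difference among the members with more than 23 counts a library. In CTL cells its mean with TNFα was 58.5% of that without it, and all 3 treated libraries lay below all 3 untreated ones. The log2 change of -0.77 (SE 0.23, 95% interval -1.28 to -0.27) had an adjusted p of 0.122 in edgeR's test and of 0.00369 with the library number as a block. DESeq2 gave an adjusted p of 0.0224, and over 18 alternatives the adjusted p ran from 0.00369 to 0.379. In DKD cells the treated and untreated libraries overlapped (log2 change -0.22, SE 0.23, 95% interval -0.71 to 0.28, adjusted p = 0.923 in edgeR). Averaged over both lines the change was -0.49 (SE 0.16), with an adjusted p of 0.0981 in edgeR and of 0.00312 with the block. The difference between the lines in this response, 0.56 (SE 0.32, 95% interval -0.15 to 1.26), had an adjusted p of 1.0 in edgeR.

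PPP1R3E fell with TNFα when both lines were averaged, by 0.34 on the log2 scale (SE 0.09, adjusted p = 0.0375 in edgeR, 0.0102 with the block). It was the only member to pass in that contrast without the block, where 2.20% of all genes passed as lower. All treated libraries lay below all untreated ones in each line. The call was lost without the filter on low counts (adjusted p = 0.0942 in edgeR), and also when any library other than DKD untreated 1 or CTL TNFα 1 was left out, at adjusted p between 0.0568 and 0.0956. Within CTL cells the log2 change was -0.41 (SE 0.12, adjusted p = 0.124 in edgeR and 0.0315 with the block), and within DKD cells -0.26 (SE 0.12, adjusted p = 0.495 in edgeR). HOMEZ, which overlaps it, averaged 15.6 against 12.9 CPM in DKD cells and 14.2 against 12.85 CPM in CTL cells, with TNFα against without. BCL2L2, the other overlapping gene, averaged 32.6 against 30.35 CPM in DKD cells and 38.45 against 35.7 CPM in CTL cells, in the same order.

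For PPP1R3B the TNFα change was -0.06 (SE 0.23, 95% interval -0.57 to 0.46) in DKD cells and -0.21 (SE 0.22, 95% interval -0.68 to 0.26) in CTL cells, with adjusted p of 0.988 and 0.782 in edgeR. The treated CTL library was the lower in 3 of 3 same-numbered pairs, yet the groups overlapped, with the highest value of each in the library numbered 1. PPP1R3D was higher with TNFα in all DKD libraries (log2 change 0.22, SE 0.12, adjusted p = 0.657 in edgeR) and overlapped in CTL cells (0.06, SE 0.12, adjusted p = 0.920). PPP1R3G in CTL cells was lower in all treated than in all untreated libraries (log2 change -0.84, SE 0.36, adjusted p = 0.317 in edgeR), on counts of 10 to 18.

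PYGL stood lower with TNFα in both lines. The log2 change was -0.21 (SE 0.09) in DKD cells, where the groups overlapped, and -0.18 (SE 0.09) in CTL cells, where they did not, with adjusted p of 0.480 and 0.432 in edgeR. Averaged over both lines it was -0.20 (SE 0.07), with an adjusted p of 0.110 in edgeR and of 0.0189 with the block. GBE1 ran the other way, at 0.15 (SE 0.16, adjusted p = 0.929 in edgeR) in DKD cells and 0.36 (SE 0.16, adjusted p = 0.361 in edgeR, 0.0215 with the block) in CTL cells. Its average was 0.26 (SE 0.12, adjusted p = 0.248 in edgeR, 0.0148 with the block). With the block, then, 4 members passed on average, GBE1 higher and PPP1R3C, PPP1R3E and PYGL lower, where 12.4% of all genes were higher and 8.82% lower. GYS1 changed by 0.03 (SE 0.09) in DKD and 0.09 (SE 0.09) in CTL cells, and UGP2 by 0.03 (SE 0.13) and -0.05 (SE 0.13), with no adjusted p under 0.784 in edgeR.

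The interaction contrast asks whether the TNFα change differed between the lines. In edgeR 0 of 16118 genes passed (0%), members included, and 184 genes (1.14%) but 0 members had an unadjusted p under 0.05. DESeq2 called 5 of 16095 genes and 0 members. Members' interaction values ran from -0.21 for GBE1 to 1.0 for PPP1R3G, and the 95% interval of PPP1R3B was -0.55 to 0.85.

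**Figure D4:**
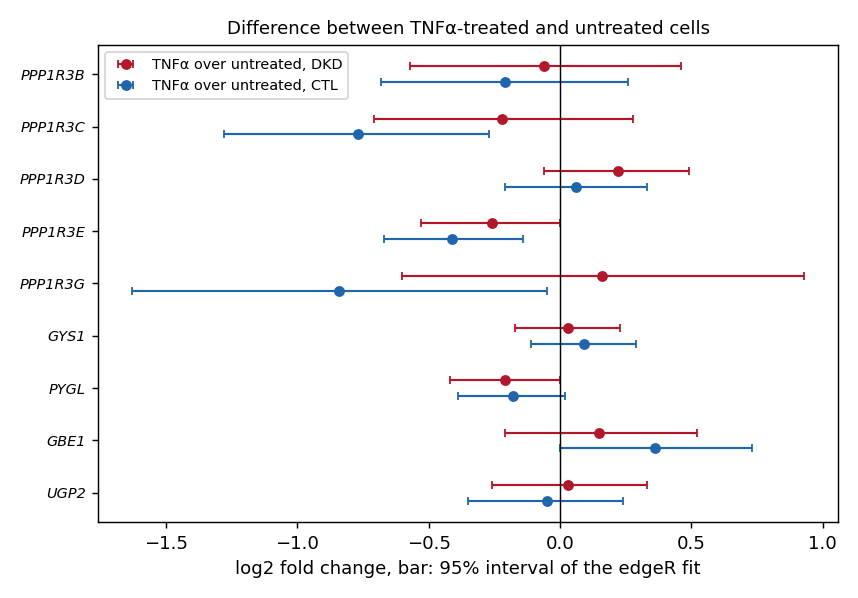
Log2 change with TNFα over untreated cells (horizontal axis) for the 9 tested members, in DKD (red) and CTL (blue) cells; bars are 95% intervals of the edgeR fit. In CTL cells PPP1R3C lies at -0.77 and PPP1R3E at -0.41, while GYS1 and UGP2 lie between -0.05 and 0.09 in both lines.

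Other genes of the pathway were read from a list of 36 that holds no member, of which 31 could be tested. It covers glycogenins, phosphoglucomutases, other phosphorylases, debranching and kinase subunits, the phosphatase and its regulators, and glucose entry and release. In edgeR's test, 1 of these was higher (3.94% of all genes) and 1 lower (2.30% of all genes) in DKD than in CTL cells with TNFα, and 2 were higher without it (3.13% of all genes). With the block and TNFα, 6 were higher (10.6% of all genes) and 5 lower (8.79% of all genes). With the block and no TNFα, 5 were higher (9.17% of all genes) and 4 lower (7.31% of all genes). The list's median log2 difference was -0.06 with TNFα and -0.03 without it.

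PGM1, the phosphoglucomutase that turns glucose 6-phosphate into glucose 1-phosphate, differed between the lines under both treatments. It stood at 127.5, 113.0 and 122.8 CPM in TNFα-treated DKD cells, against 77.8, 76.2 and 86.0 CPM in TNFα-treated CTL cells. Untreated, it stood at 132.7, 139.6 and 145.6 CPM in DKD cells, against 103.5, 102.5 and 111.0 CPM in CTL cells. No DKD library overlapped a CTL library of the same treatment, and PGM1 was higher by 0.60 (SE 0.08, adjusted p = 0.00123 in edgeR) with TNFα and by 0.40 (SE 0.08, adjusted p = 0.0131) without it. Without TNFα the adjusted p in edgeR was 0.00145 with the block. In fits without the block, that call was lost when DKD untreated 2 or 3, or CTL untreated 1 or 2, was left out.

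HK2, a hexokinase, was lower in DKD than in CTL cells with TNFα, at 92.1, 107.4 and 88.9 CPM against 146.5, 157.6 and 124.0 CPM (log2 difference -0.57, SE 0.14, adjusted p = 0.0361 in edgeR). Without TNFα it stood at 120.9, 146.2 and 121.1 CPM in DKD cells, against 164.6, 217.9 and 162.8 CPM in CTL cells, with a difference of -0.49 (adjusted p = 0.0793 in edgeR, 8.19e-04 with the block). With TNFα the adjusted p in edgeR was 2.67e-04 with the block. In fits without the block, that call was lost when DKD TNFα 1 or 3, or CTL TNFα 1 or 2, was left out. SLC2A2, the glucose transporter GLUT2 of hepatocytes, stood at 96.6, 86.7 and 81.4 CPM in untreated DKD cells, against 58.9, 52.2 and 53.6 CPM in untreated CTL cells. That difference of 0.68 (SE 0.12, adjusted p = 0.00597 in edgeR) passed with each single library left out. With TNFα SLC2A2 stood at 75.9 ± 9.60 CPM in DKD cells, against 59.2 ± 6.20 CPM in CTL cells (0.36, SE 0.12, adjusted p = 0.107 in edgeR, 0.0132 with the block).

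With TNFα 0 genes of the list passed in DKD cells in edgeR, 5 had an unadjusted p under 0.05, and 3 passed with the block, HK2 lower and PPP1R2 and SLC2A1 higher, beside 1.79% of all genes without the block and 7.67% with it. In CTL cells 2 passed, both lower (0.726% of all genes). With the block 3 were higher (7.94% of all genes) and 3 lower (4.70% of all genes). GYG2, the liver glycogenin that primes the chain, stood at 34.0, 35.2 and 39.2 CPM in TNFα-treated CTL cells, against 52.2, 65.1 and 70.3 CPM in untreated CTL cells. It fell by 0.79 (SE 0.17, adjusted p = 0.0390 in edgeR, 0.00114 with the block). In fits without the block, the call was lost when DKD TNFα 2 or 3, DKD untreated 2, any CTL TNFα library, or CTL untreated 2 or 3 was left out. PGM1 fell in the same comparison by 0.40 (SE 0.08, adjusted p = 0.0219 in edgeR, 0.00217 with the block). In fits without the block, that call was lost without CTL TNFα 1 or 2 or any CTL untreated library.

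Averaged over both lines, 1 passed as higher (5.02% of all genes) and 3 as lower (2.20% of all genes). PGM1 fell by 0.30 (adjusted p = 0.00739 in edgeR), GYG2 by 0.50 (adjusted p = 0.0320) and HK2 by 0.39 (adjusted p = 0.0375). PPP1R2, which encodes inhibitor 2 of protein phosphatase 1, rose by 0.59 (SE 0.13, adjusted p = 0.0223 in edgeR). It stood at 65.1, 65.9 and 52.9 CPM with TNFα, against 55.9, 43.0 and 36.9 CPM without it, in DKD cells, and at 92.4, 91.9 and 66.0 CPM against 60.4, 46.6 and 43.6 CPM in CTL cells. With the block 7 were higher (12.4% of all genes) and 3 lower (8.82% of all genes). Leaving out 1 library at a time left 1 to 5 of these genes, and only the PGM1 call was kept in all 12 of those fits. In the interaction 0 genes of the list passed in edgeR, and 1 had an unadjusted p under 0.05.

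**Figure D5:**
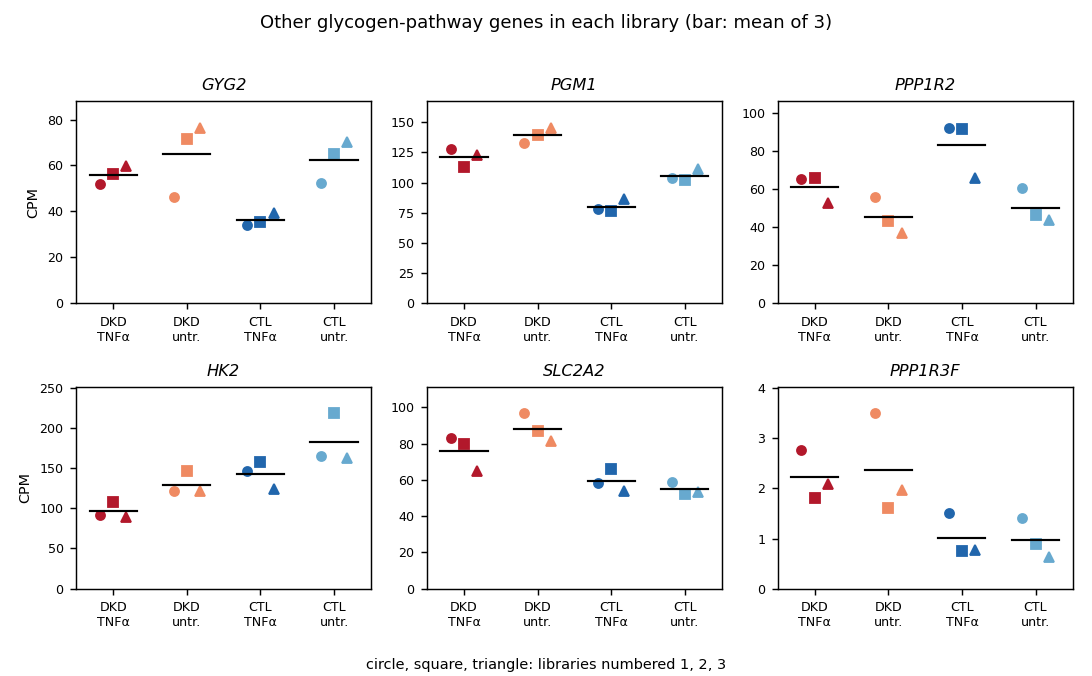
Level in CPM (vertical axis, from 0) of 6 genes outside the 10 members in each of the 12 libraries, by group (horizontal axis), with the bar at the mean of 3. PGM1 lies at 113.0 to 127.5 CPM in TNFα-treated DKD cells, against 76.2 to 86.0 CPM in TNFα-treated CTL cells, and GYG2 is lowest in TNFα-treated CTL cells.

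Pearson's r of log2 CPM with PPP1R3B across the 12 libraries was computed for 10820 genes. Their average abundance in edgeR, close to the log2 of the mean CPM, was at least 2. Clone and locus names were left out, and with them every symbol that begins with AC, AL or AP, ALB among them. Of the genes compared, CSAG1 and CCND2 had the highest r (0.988 each), then MACROH2A2, MCM3AP and CDH16 (0.986 each). The lowest r belonged to LTBP1 (-0.997), PTPRJ (-0.990) and ANTXR2 (-0.988). These values describe the split between the lines, which all 12 points share and on which PPP1R3B was chosen. CSAG1 and CCND2 met the level minimum through the CTL libraries, CCND2 with 2 and 1 summed counts in the DKD groups, against 3826 and 3828 in the CTL groups, with TNFα and without it. Without the DKD libraries numbered 1 they were 0.984 to 0.991 and -0.996 to -0.987. CSAG1 averaged 0.122 CPM in TNFα-treated and 0.109 CPM in untreated DKD cells, against 14.9 and 14.6 CPM in CTL cells. CDH16, with a smaller difference, averaged 3.86 and 3.39 CPM in DKD cells, against 17.8 and 18.1 CPM in CTL cells. None of the other members reached an r beyond -0.72 (PYGL) or 0.51 (GBE1) with PPP1R3B. Among the members themselves, PPP1R3C ran with PYGL (0.89) and UGP2 (0.75) and against GBE1 (-0.83). These values pool the 12 libraries, so differences by line, TNFα and library number all enter them and were not separated.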

How the data were processed

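RNA-seq of 12 HepG2 libraries was analysed from the deposited estimated counts, 1 row for each gene symbol and already whole numbers. The submitters' processing notes name Salmon 0.14.0, CASAVA 1.7, DESeq2 and GRCh38/hg38. The annotation, like the strand setting and the summing of transcripts to genes, is not given in the sources used here. The authors' second table holds a normalised signal and was not used.

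Counts were tested with edgeR 4.0.16 (R 4.3.3, limma 3.58.1): TMM factors, filterByExpr (minimum count 10, minimum total 15; 16118 genes kept), 1 mean for each of the 4 groups over all 12 libraries, 8 residual degrees of freedom, the quasi-likelihood test and Benjamini-Hochberg adjustment over all tested genes, with a call at an adjusted p under 0.05. SE is the log2 change over the square root of F. No pair of libraries of a group agreed within sampling noise. Intervals and floors (3 counts) cover counting error or spread between libraries only.

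Titles number the libraries 1 to 3 in each group. Same-numbered libraries deviated together in all 18 pairs (r 0.193 to 0.695, against -0.544 to 0.311 for different numbers), so the numbers pair them. The main fit leaves this pairing out. Where the number as a block changes a count of members or pathway genes called, that count is given too. Its adjusted p is given for only some single genes.

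The members, the lists and the tests were chosen with earlier results of these data known. Named were all members, both knocked-down genes, each other glycogen gene called in a contrast, and the 5 highest and 3 lowest correlations with PPP1R3B among the genes compared. Lengths came from GENCODE 29 gene models (GRCh38), promoters from RefSeq. Alternatives were the block, DESeq2 1.42.0, its size factors in edgeR, no filter, each library left out, both DKD libraries numbered 1 left out, only the 2 groups compared, and, chosen after seeing the data, the longest transcript as length. No alternative fit but the block itself used the library number.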

Additional observations from a re-analysis of the deposited data

Results flagged for a closer look

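PPP1R3G was the member whose line difference pointed one way in every same-numbered pair with TNFα and the other way in every pair without it. The fitted values of PPP1R3D and GYS1 also differed in sign, but not their pairs throughout. For PPP1R3G, in all 3 same-numbered pairs the DKD library was the higher with TNFα (log2 difference 0.70, SE 0.36) and the lower without it (-0.31, SE 0.35). The difference between these values, which is also the difference between the TNFα changes of DKD and CTL cells, was 1.0 (SE 0.50, 95% interval -0.10 to 2.10), with an unadjusted p of 0.0697 and an adjusted p of 1.0 in edgeR. It rests on 10 to 23 counts a library, and over 17 alternatives it ran from 0.66 to 1.30.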

How the results depend on the processing

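No value past the threshold changed its sign, while members' values short of it did under some alternatives, among them the TNFα change of PPP1R3B in CTL cells (-0.39 to 0.07) and of PPP1R3G in DKD cells (-0.18 to 0.46). Of the members' fold changes, 912 kept their side of the threshold under the alternatives, 31 passed it and 11 no longer did. With the replicate block the members called numbered 3 for TNFα in CTL cells (0 without the block), 4 for TNFα averaged (1), 5 for DKD against CTL with TNFα (1) and 2 without TNFα (1); it changed no count of members for TNFα in DKD cells or the interaction. Members' counts for DKD against CTL, here and below, are a description, since PPP1R3B was chosen on that contrast. PPP1R3B is itself among the members in each of these counts, and nothing is read from them. The other glycogen genes called with the block numbered 3, 6, 10, 11 and 9 for TNFα in DKD cells, in CTL cells and averaged, and for DKD against CTL with and without TNFα. DESeq2 called 2, 3, 3 and 2 members for TNFα in CTL cells, TNFα averaged, and DKD against CTL with and without TNFα, and 4 other genes in each of the last pair. Without both DKD libraries numbered 1 the members called were 2, 3, 2 and 2 in those comparisons, and 4 other genes passed for TNFα in CTL cells. Without the filter 0 members passed for TNFα averaged. With only the 2 groups compared, 1 member passed for TNFα in CTL cells and 1 other gene for DKD against CTL untreated. Leaving out 1 library gave 0 to 2 members for TNFα averaged (2 without DKD TNFα 1), 1 to 3 for DKD against CTL with TNFα (3 without DKD untreated 1), 1 to 2 untreated (2 without DKD TNFα 1), and 0 elsewhere; for the other genes 0 to 3 (TNFα in CTL cells), 1 to 5 (averaged), 1 to 4 and 1 to 2 (DKD against CTL). By the longest transcript the PPP1R3B shares were 4.13% and 3.90% in DKD cells and 28.8% and 25.5% in CTL cells, with TNFα and without it. Over all genes, the calls for TNFα numbered 289 in DKD cells (1237 with the block, 651 by DESeq2, 466 without both DKD libraries numbered 1, 41 with only the 2 groups) and 423 in CTL cells (2037, 1024, 1400 and 691). The average had 1163 (3414 with the block, 1986 by DESeq2, 2570 without both DKD libraries numbered 1). DKD against CTL had 1005 with TNFα (3133 with the block, 1752 by DESeq2) and 803 without it (2657, 1434, 1384 without both DKD libraries numbered 1 and 332 with only the 2 groups). The cause of these differences was not tested. At this depth PPP1R3G rests on 10 to 23 counts a library.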

Other observations

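The values that follow were picked after they were seen. SLC2A1 and PPP1R3F were among the other pathway genes tested above. PPP1R3B, PPP1R3C and UGP2 were each highest in the library numbered 1 in all 4 groups. SLC2A1, the glucose transporter GLUT1, was lowest there in all 4, at 151.9, 787.8 and 823.3 CPM in TNFα-treated DKD cells, 81.5, 269.3 and 254.3 CPM in untreated DKD cells, 361.1, 916.5 and 959.9 CPM in TNFα-treated CTL cells and 127.4, 402.6 and 333.1 CPM in untreated CTL cells. Averaged over both lines, SLC2A1 was higher with TNFα by 1.46 (SE 0.48), with an adjusted p of 0.101 in edgeR and of 4.38e-05 with the library number as a block.

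PPP1R3F, a further subunit of the family, stood at 2.77, 1.80 and 2.09 CPM in TNFα-treated DKD cells, against 1.51, 0.758 and 0.768 CPM in TNFα-treated CTL cells. Untreated, it stood at 3.50, 1.62 and 1.98 CPM in DKD cells, against 1.41, 0.897 and 0.624 CPM in CTL cells. The lines did not overlap under either treatment, with log2 differences of 1.13 (adjusted p = 0.144 in edgeR, 0.00277 with the block) and 1.27 (adjusted p = 0.119 in edgeR, 0.00237 with the block). PPP1R3A, the muscle subunit, had at most 7 summed counts in a group.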
